A study of Homo sapiens with 6 samples.

Results

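Axon guidance genes encode the secreted and membrane-bound cues that steer growing nerve fibres, together with the receptors that read them. The set described here held the semaphorins and their plexin and neuropilin receptors, the ephrins and Eph receptors, the Slits and Robos, and the netrins with their receptors. Genes were taken by symbol, and 58 of the 15585 genes in the deposited table met the rule. These comprised 30 ligands and 28 receptors, all annotated as protein coding. DCC, the classical netrin receptor, and SLIT3 were not analysed here.

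The cells were U2OS, an established human osteosarcoma line, transfected with small interfering RNA (siRNA) and profiled by RNA sequencing after 48 h. One group of 3 libraries received a control siRNA (siCTR) and the other group of 3 received siRNA against LSD1 (siLSD1), the lysine-specific histone demethylase encoded by KDM1A. Which LSD1 siRNA sequence was used was not given in the sources used here, so loss of LSD1 and any other effect of that siRNA cannot be told apart. The labels do not say that libraries came from separate cultures, and p-values therefore measure the spread between these samples, which may be technical.

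The systems work in related ways. Semaphorins bind plexins, with neuropilins as co-receptors for the secreted class, and the plexins then act on small GTPases and the actin cytoskeleton. Ephrins are anchored to the membrane, so they signal to Eph receptor tyrosine kinases on a touching cell and can signal back into their own cell. Slits repel through Robo receptors, and netrins attract through DCC or NEO1 and repel through UNC5 receptors. Outside the nervous system these same genes are known for roles in vessel growth, bone remodelling, epithelial boundaries and tumour cell migration.

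Library totals ranged from 12513511 to 13561344 counted reads, and the 58 genes together took between 0.163% and 0.223% of them. KDM1A held 6140, 6493 and 6573 reads in siCTR against 1110, 1198 and 1246 in siLSD1. The log2 fold change of KDM1A was -2.44 (SE 0.11, edgeR's quasi-likelihood test, Benjamini-Hochberg adjusted p = 2.27e-07), so the target was lower in all 3 libraries labelled siLSD1. Of 8 osteoblast markers, 6 were in the table. ALPL, the bone alkaline phosphatase, averaged 339 CPM (counts scaled to library depth) in siCTR and 365 in siLSD1, whereas RUNX2 and SPARC stayed at or under 0.229 CPM in both group means, so 2 defining markers of the labelled bone lineage were near 0. Of 10 neuron markers, 5 were in the table, and their summed FPKM (reads scaled to gene length and library depth) lay between 0.912 and 1.54 in siCTR and between 1.12 and 1.23 in siLSD1.

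In the comparison of siLSD1 with siCTR, 39 of the 58 genes passed the filter on low counts and were tested, and the other 19 were not. SEMA5A and NTN4 rose after LSD1 knockdown at an adjusted p under 0.05, and 0 genes of the set fell at that threshold. Over all 11844 tested genes, 1.07% were called higher and 0.371% lower by the same rule. At an unadjusted p under 0.05, 5 guidance genes were higher and 3 were lower, against 7.48% and 6.55% of all tested genes in the respective directions. In all, 20.5% of the 39 genes met the unadjusted p, against 14.0% of all tested genes. The median log2 fold change of the 39 genes was 0.04, beside -0.01 for all tested genes, with 23 values above 0 and 16 below.

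**Figure D1:**
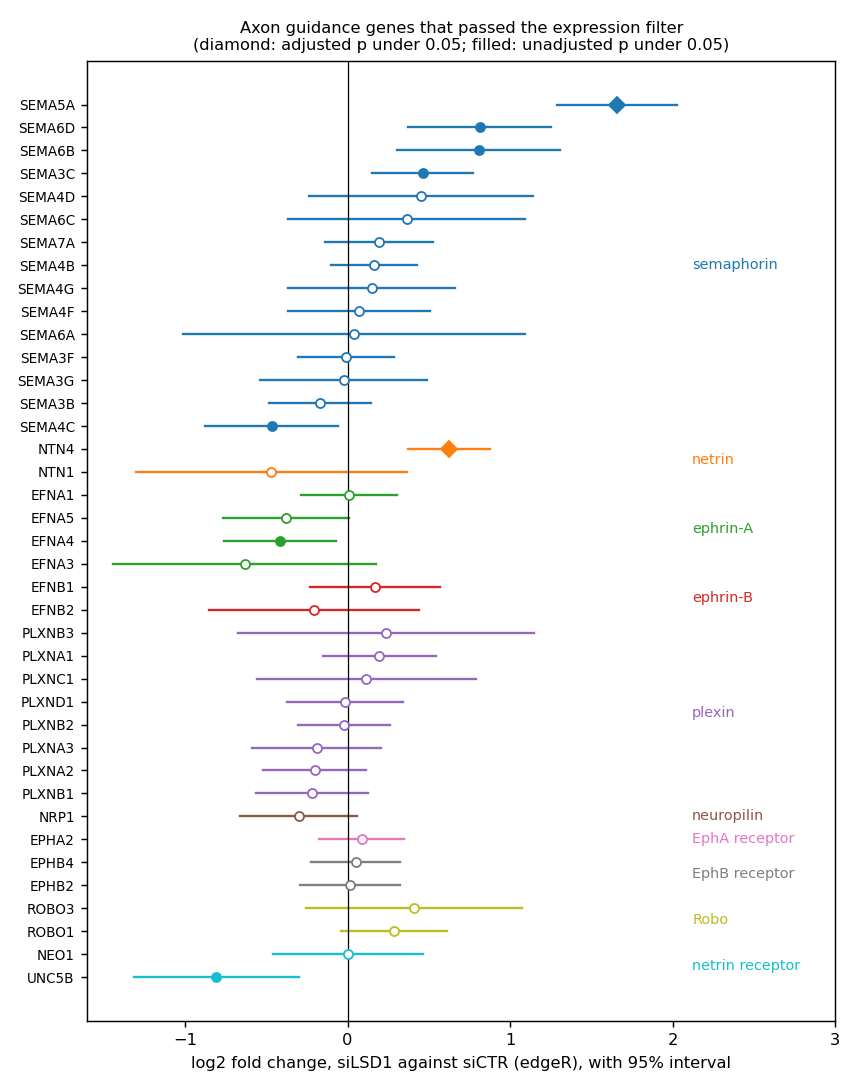
Log2 fold change of siLSD1 against siCTR (horizontal axis) for the 39 tested guidance genes, grouped by family, each with its 95% interval from edgeR. SEMA5A at 1.66 and NTN4 at 0.63 (diamonds) are the genes past an adjusted p of 0.05, 6 further filled points have an unadjusted p under 0.05, and the 8 plexins lie between -0.22 and 0.24.

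SEMA5A is a transmembrane semaphorin with thrombospondin repeats in its extracellular part (GRCh38 chr5:9035033-9546075, minus strand). NTN4 is a secreted netrin, related in sequence to laminin, that is found in basement membranes (chr12:95657807-95791189, minus strand). The 250 bases before a RefSeq transcription start of each gene are shown because these are the 2 genes that passed the adjusted threshold. They read 5′ to 3′ on the gene's own strand of GRCh38.p14, and capitals mark the GC box GGGCGG or its reverse CCGCCC, the letters bound by SP family factors.
SEMA5A, chr5:9546076-9546325: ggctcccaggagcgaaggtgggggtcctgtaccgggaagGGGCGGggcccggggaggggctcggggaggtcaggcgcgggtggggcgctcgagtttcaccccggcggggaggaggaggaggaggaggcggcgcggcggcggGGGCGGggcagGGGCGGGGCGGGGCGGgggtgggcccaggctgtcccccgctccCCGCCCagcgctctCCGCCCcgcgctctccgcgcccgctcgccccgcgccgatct
NTN4, chr12:95790765-95791014: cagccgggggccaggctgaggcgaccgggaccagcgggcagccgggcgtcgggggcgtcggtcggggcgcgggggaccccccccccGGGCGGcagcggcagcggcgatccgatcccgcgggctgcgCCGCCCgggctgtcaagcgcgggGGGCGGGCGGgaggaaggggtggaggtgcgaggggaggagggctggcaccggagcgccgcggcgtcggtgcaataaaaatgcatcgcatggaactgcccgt

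Counting overlapping matches separately, the SEMA5A window held 7 GC boxes and the NTN4 window held 4. GC content was 82.0% and 78.4%, respectively. The RefSeq table also gives NTN4 a start further upstream (window chr12:95791156-95791405), where 0 GC boxes were found. On both strands, 42.6% of the 35116 promoter windows of this length in the table held a GC box, and of the 77 windows matched to 49 guidance genes 74.0% did. The E-box CACCTG, bound by SNAI1, and the TATA box TATAAA were found in 0 of the 3 windows of SEMA5A and NTN4. They were present in 17.5% and 10.7% of all windows and in 16.9% and 3.90% of those of the guidance genes.

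Among the semaphorins, SEMA5A had the largest log2 fold change of the 39 tested guidance genes. It held 145, 93 and 145 reads in siCTR replicates 1 to 3 and 401, 362 and 448 reads in siLSD1. The lowest siLSD1 library was thus well above the highest siCTR library. The level went from 9.73 ± 2.16 to 30.7 ± 2.20 CPM (SD, n = 3), a 3.15-fold difference. Its log2 fold change was 1.66 (SE 0.17, 95% interval 1.29 to 2.02, adjusted p = 0.000627). With each library left out in turn it stayed between 1.49 and 1.76 and was called in 6 of 6 fits. Per length, SEMA5A nevertheless remained a gene of modest level, with 0.828 FPKM in siCTR and 2.61 in siLSD1. A non-coding gene on the opposite strand, ENSG00000250619, overlaps its exons in GENCODE, and reads of the pair cannot be separated if counting ignored strand, which is not stated.

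NTN4, the other gene called, varied little among the control libraries. It held 511, 497 and 524 reads in siCTR against 731, 780 and 858 in siLSD1, with no overlap between the groups. The means were 39.0 ± 0.329 and 60.2 ± 5.01 CPM (SD, n = 3), a 1.54-fold difference. Its log2 fold change was 0.63 (SE 0.12, 95% interval 0.37 to 0.88, adjusted p = 0.0198). With single libraries left out the log2 fold change ranged from 0.59 to 0.69, and the adjusted p stayed under 0.05 in 2 of 6 fits. The call was lost without siCTR replicate 1 (adjusted p = 0.0503), replicate 2 (0.0550) or replicate 3 (0.0916) and without siLSD1 replicate 2 (0.135). NTN1, the netrin known from the floor plate of the spinal cord, was low, with 11, 18 and 25 reads in siCTR against 15, 10 and 14 in siLSD1. The groups overlapped and its log2 fold change was -0.47 (95% interval -1.30 to 0.37, unadjusted p = 0.246).

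Of the 18 semaphorins, 15 were tested. SEMA6D, a transmembrane semaphorin that binds plexin A1, held 122, 72 and 81 reads in siCTR against 153, 153 and 179 in siLSD1. Its log2 fold change was 0.81 (SE 0.20, 95% interval 0.37 to 1.25), with an unadjusted p of 0.00154 and an adjusted p of 0.0741. The highest control library was replicate 1, and without it the log2 fold change was 1.08 and the adjusted p 0.0156. It was called in that 1 of 6 fits with a library left out, where the adjusted p reached 0.238, and in 4 of 10 alternatives, where it ranged from 0.000843 to 0.0875. SEMA6B, a member of the same class, held 58, 52 and 46 reads in siCTR against 114, 91 and 69 in siLSD1, and the 2 groups did not overlap. The log2 fold change of SEMA6B was likewise 0.81 (SE 0.23, adjusted p = 0.123). SEMA3C, a secreted semaphorin that acts through neuropilins and is required for heart outflow tract development, held 433, 438 and 534 reads in siCTR against 556, 601 and 783 in siLSD1. The log2 fold change of SEMA3C was 0.46 (SE 0.14, unadjusted p = 0.00682, adjusted p = 0.161). SEMA6B and SEMA3C were each called in 2 of 10 alternatives, the replicate block and the GC and length correction, and in 0 of 6 fits with a library left out.

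One semaphorin met the unadjusted p in the other direction. SEMA4C, a ligand of plexin B2, held 142, 108 and 122 reads in siCTR against 76, 99 and 94 in siLSD1. Scaled to CPM the groups did not overlap, and the log2 fold change was -0.47 (SE 0.19, unadjusted p = 0.0285, adjusted p = 0.282). SEMA3B, a secreted semaphorin known as a tumour suppressor in lung, had the highest level of the 58 genes. It held 3116, 2693 and 2622 reads in siCTR against 2953, 2529 and 2017 in siLSD1, which overlapped. Its levels were 64.8 ± 7.44 FPKM in siCTR and 57.6 ± 11.5 FPKM in siLSD1 (SD, n = 3), and its log2 fold change was -0.17 (95% interval -0.48 to 0.14). SEMA3B supplied 61.9% of the summed semaphorin FPKM in siCTR and 54.8% in siLSD1. The antisense gene SEMA3B-AS1 overlaps its exons.

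**Figure D2:**
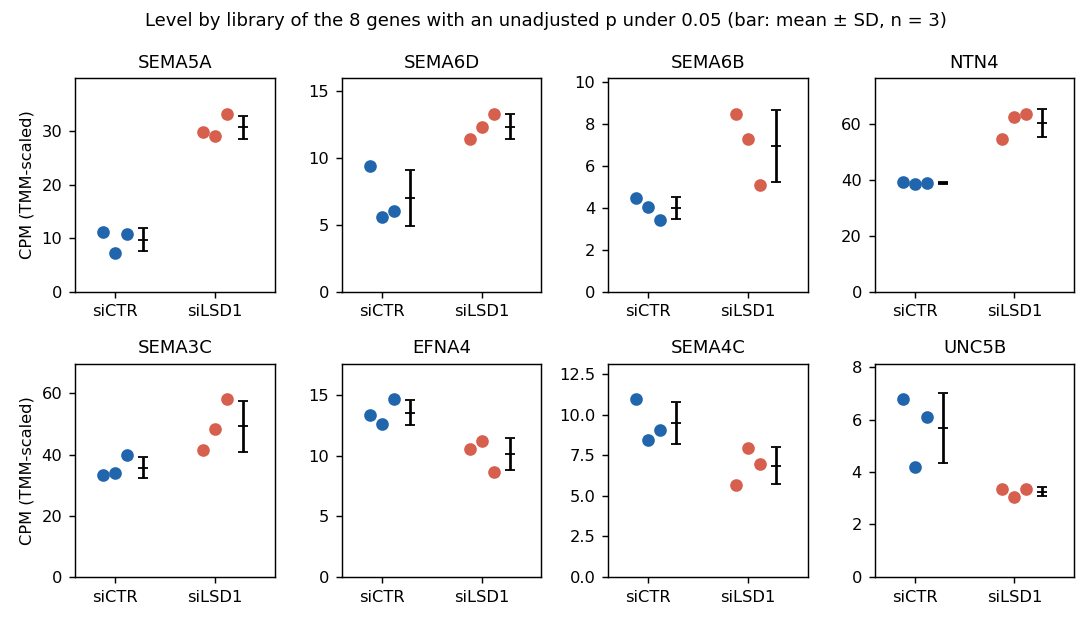
CPM (vertical axes from 0) in each siCTR (blue) and siLSD1 (red) library for the 8 guidance genes with an unadjusted p under 0.05, with black bars for the mean ± SD of 3 libraries. The groups do not overlap in any of the 8 panels; SEMA5A runs from a mean of 9.73 to 30.7 CPM and UNC5B from 5.69 to 3.25 CPM.

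The ephrins A, which are tethered to the membrane by a lipid anchor, were represented by 5 genes, 4 of them tested. EFNA1, the main partner of EPHA2, held 715, 901 and 696 reads in siCTR against 842, 763 and 728 in siLSD1, with overlapping groups and a log2 fold change of 0.01 (95% interval -0.29 to 0.30). EFNA4 held 173, 162 and 197 reads in siCTR against 142, 140 and 117 in siLSD1. All 3 siLSD1 libraries of EFNA4 lay below all 3 controls, with a log2 fold change of -0.41 (SE 0.16, unadjusted p = 0.0225, adjusted p = 0.259). For EFNA5 the siLSD1 libraries were again the lower ones, at 101, 97 and 102 reads against 118, 155 and 116, but its unadjusted p was 0.0543. EFNA3 held 25, 34 and 23 reads in siCTR against 27, 16 and 10 in siLSD1 (log2 fold change -0.63, 95% interval -1.44 to 0.18).

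EFNA4, EFNA3 and EFNA1 lie side by side within 71163 bases on chromosome 1 (chr1:155063737-155134899). Their log2 fold changes were -0.41, -0.63 and 0.01 in that order, with a test passed at the unadjusted threshold by EFNA4 alone. GENCODE holds a read-through gene, EFNA4-EFNA3, that shares exons with both neighbours, so reads of EFNA4 and EFNA3 may not be fully separable. The ephrins B, which span the membrane, showed no difference beyond the spread. EFNB1 held 117, 87 and 118 reads in siCTR against 126, 130 and 106 in siLSD1 (log2 fold change 0.17, 95% interval -0.23 to 0.57). EFNB2, the arterial ephrin that binds EPHB4, had a log2 fold change of -0.21 (95% interval -0.85 to 0.44).

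On the receptor side, 16 of 28 genes were tested, of which 0 were higher and 1 was lower at an unadjusted p under 0.05. For the ligands those counts were 5 and 2 of 23 tested. Over all tested genes the shares were 7.48% and 6.55%, so the 6.25% of receptors that met this p was below the 14.0% of all tested genes, and the 30.4% of ligands was above it. Whether ligands and receptors differed in this respect was not tested. The receptor past the unadjusted threshold was UNC5B, a netrin receptor known for repulsion and for signalling cell death when unbound. UNC5B held 88, 54 and 82 reads in siCTR against 45, 38 and 45 in siLSD1, and the means were 5.69 ± 1.33 and 3.25 ± 0.171 CPM (SD, n = 3). Each siLSD1 library was below each control. The log2 fold change of UNC5B was -0.81 (SE 0.23, 95% interval -1.32 to -0.30), with an adjusted p of 0.129. UNC5B was called in 2 of 10 alternatives, the replicate block and the GC and length correction, and in 0 of 6 fits with a library left out. NEO1 (neogenin), a receptor for netrins and for repulsive guidance molecules, held 99, 67 and 111 reads in siCTR against 98, 73 and 108 in siLSD1. The 2 NEO1 means, 0.958 ± 0.226 and 0.961 ± 0.150 FPKM (SD, n = 3), nearly coincided.

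Plexins had the highest summed level among the receptor families, at 143 ± 31.4 FPKM in siCTR and 141 ± 15.2 FPKM in siLSD1 (SD, n = 3). PLXNB2 led with 5469, 3870 and 5079 reads in siCTR against 5157, 4466 and 4593 in siLSD1. PLXNB2 had a log2 fold change of -0.02 (95% interval -0.30 to 0.26). PLXND1, the vascular plexin, stood at 35.5 and 35.1 FPKM, and PLXNA1 at 18.7 and 21.4 FPKM in siCTR and siLSD1. PLXNB1, the receptor for SEMA4D, stood at 17.5 and 15.0 FPKM. Of 8 tested plexins 0 had an unadjusted p under 0.05, beside 14.0% of all tested genes, and their log2 fold changes ran from -0.22 to 0.24. After a correction for gene length and GC content, PLXNA2 was called lower at an adjusted p under 0.05, as was UNC5B, in a fit that called 2.94% of all genes lower.

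One control library was low for most plexins. siCTR replicate 2 was the lowest of the 6 libraries for 7 of the 8 tested plexins, and their median deviation from each gene's mean there was -0.38 on the log2 scale. Over the 39 tested guidance genes siCTR replicate 2 was the lowest library for 19, with a median deviation of -0.25. How often it was the lowest over all tested genes was not counted, so this need not be particular to guidance genes. Over all genes with enough reads, chi-square per degree of freedom between it and siCTR replicates 1 and 3 was 29.2 and 22.7. That measure of difference was 7.02 between siCTR replicates 1 and 3, and 6.45 to 23.1 within siLSD1. In siCTR replicate 2 the upper quartile of genes by GC content deviated from the lower quartile by a median of -0.03 on the log2 scale. The same deviation was 0.31 in siLSD1 replicate 1 and -0.39 in siLSD1 replicate 3. The part of GC content in the plexin values was not tested. Without siCTR replicate 2, 7 of 42 tested guidance genes were higher and 7 lower at an unadjusted p under 0.05, beside 840 higher and 683 lower of 12007 genes in the same fit. The 7 higher included EPHA5 and SLIT1, which have few reads and passed the filter in that fit through their siLSD1 reads. SEMA5A was the 1 gene called at the adjusted threshold, which 0.541% of all genes then passed as higher and 0.192% as lower, and the median log2 fold change was -0.07.

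**Figure D3:**
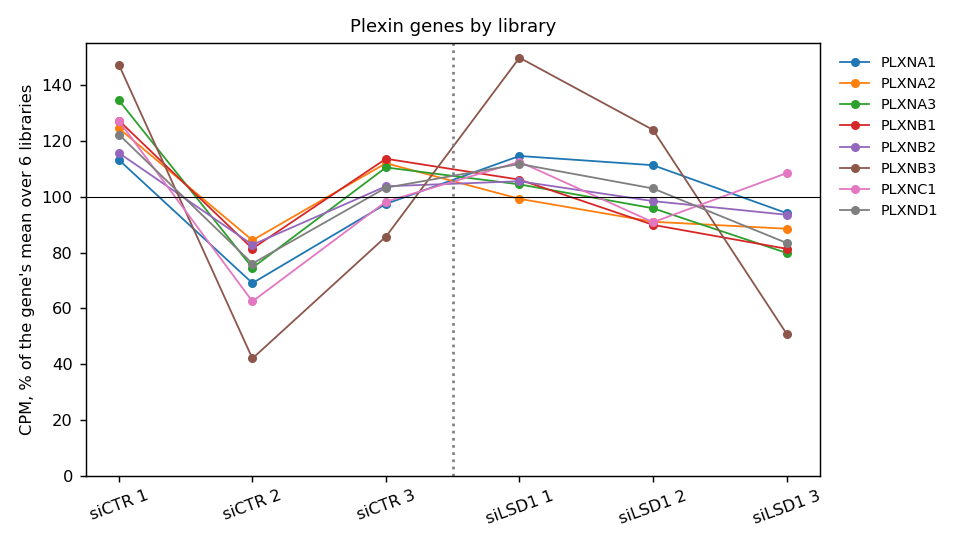
CPM of the 8 tested plexin genes in each library, as a percentage of the gene's mean over the 6 libraries (vertical axis from 0), with a line joining the values of 1 gene and a dotted line between the groups. siCTR replicate 2 is the lowest library for 7 of the 8 genes.

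Among the neuropilins, Eph receptors and Robos, 6 of 14 genes were tested and 0 of these 6 had an unadjusted p under 0.05, which 14.0% of all tested genes had. NRP1, a co-receptor for secreted semaphorins and for VEGF, held 351, 264 and 349 reads in siCTR against 211, 275 and 296 in siLSD1 (log2 fold change -0.30, 95% interval -0.66 to 0.06). EPHA2, an Eph receptor frequently abundant in tumour cells, held 2116, 1830 and 2072 reads in siCTR against 2419, 2090 and 1893 in siLSD1 (log2 fold change 0.09, 95% interval -0.17 to 0.35). EPHA2 supplied 99.8% of the summed EphA FPKM in siCTR. EPHB4, the venous Eph receptor, held 1178, 1123 and 1147 reads in siCTR against 1442, 1062 and 1082 in siLSD1, so that siLSD1 replicate 1 alone stood above the controls. The log2 fold change of EPHB4 was 0.05 (95% interval -0.22 to 0.33). SLC12A9, on the opposite strand, overlaps exons of EPHB4. ROBO1, a Slit receptor, held 616, 430 and 606 reads in siCTR against 628, 596 and 795 in siLSD1 (log2 fold change 0.29, 95% interval -0.04 to 0.61, unadjusted p = 0.0827). ROBO3 was higher in all siLSD1 libraries once scaled to CPM, but on 15 to 29 reads a library its unadjusted p was 0.208.

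Counting genes whose groups did not overlap in CPM gave 6 higher and 4 lower of the 39 tested. These are 15.4% and 10.3%, next to 11.4% and 9.97% of all tested genes. For the 31 guidance genes whose unadjusted p was not under 0.05, log2 fold changes lay between -0.63 and 0.45. The median half-width of their 95% intervals was 0.39, and for 17 of them the whole interval lay within 1.5-fold in either direction. For the other 14 a difference of 1.5-fold was not excluded by the interval at this depth.

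The control levels spread over more than 4 orders of magnitude on the FPKM scale. In siCTR, 11 of the 58 genes had a mean of at least 10 FPKM, 13 lay from 1 to 10, 16 from 0.1 to 1 and 18 under 0.1. The order at the top was SEMA3B (64.8), PLXNB2 (57.4), EPHA2 (38.6), PLXND1 (35.5), EFNA1 (30.6) and EPHB4 (20.2 FPKM). The neighbours SEMA3B and PLXNB2 (SD 7.44 and 10.1 FPKM), EPHA2 and PLXND1 (3.05 and 8.61), and PLXND1 and EFNA1 (8.61 and 4.74) differed by less than the larger SD of the pair. The levels of some known partners, chosen after their values were seen, are given side by side. EPHA2 and its ligand EFNA1 were both abundant, whereas EPHB4 at 20.2 FPKM accompanied EFNB2 at 0.466 FPKM in siCTR. PLXNB1 at 17.5 FPKM accompanied its ligand SEMA4D at 0.252 FPKM, and PLXND1 accompanied SEMA3E with 10 reads over all 6 libraries. SEMA7A at 5.45 FPKM was far above its receptor PLXNC1 at 0.260 FPKM. PLXNB3, a receptor of SEMA5A, stood at 0.588 ± 0.345 FPKM in siCTR and 0.694 ± 0.332 FPKM in siLSD1 (SD, n = 3) (log2 fold change 0.24, 95% interval -0.67 to 1.15).

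**Figure D4:**
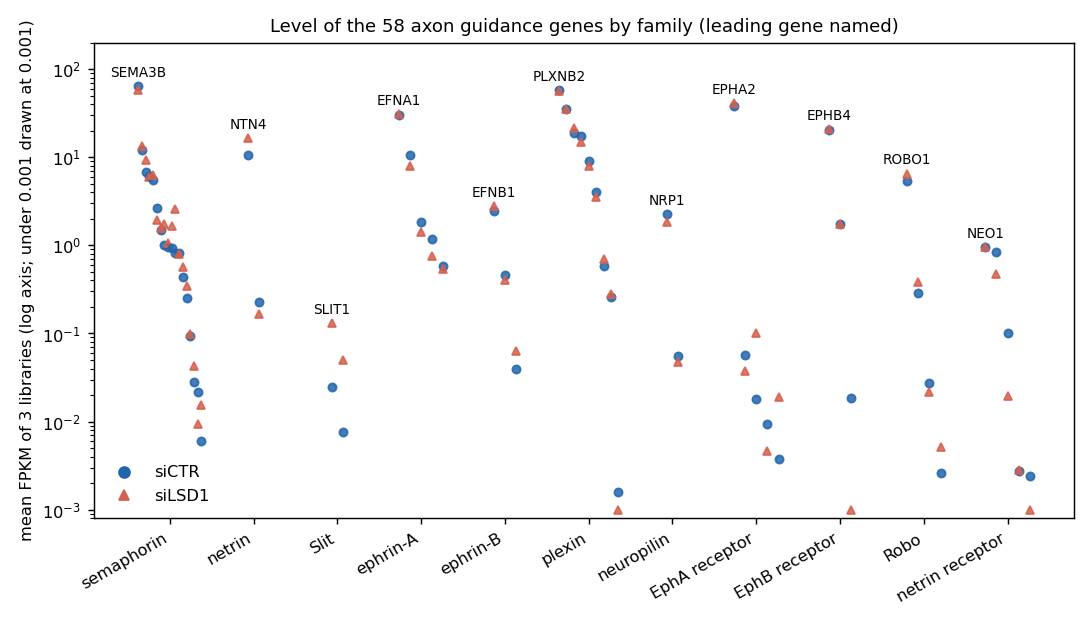
Mean FPKM of 3 siCTR (blue circles) and 3 siLSD1 (red triangles) libraries on a log axis for the 58 guidance genes, ordered by siCTR level within each family, with the leading gene named. SEMA3B (64.8 FPKM in siCTR) leads the semaphorins and PLXNB2 (57.4 FPKM) the plexins, while SLIT1, the higher of the Slits, reaches 0.130 FPKM in siLSD1.

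The 19 genes under the filter included SLIT1 and SLIT2, the repulsive ligands of the Robo receptors. SLIT1 held 2, 3 and 3 reads in siCTR against 13, 8 and 22 in siLSD1, and the groups did not overlap. Summed over libraries and scaled to depth, its ratio of siLSD1 to siCTR was 5.37 (95% exact interval 2.50 to 13.2, covering counting error only). SLIT2 held 2, 0 and 0 reads in siCTR against 5, 6 and 2 in siLSD1, a ratio of 6.49 with an interval from 1.47 to 59.3. EPHA5, an Eph receptor best known from neurons, held 4, 1 and 2 reads in siCTR against 14, 9 and 16 in siLSD1, again without overlap (ratio 5.57, interval 2.46 to 14.7). In the other direction, UNC5A held 3, 7 and 6 reads in siCTR against 2, 1 and 0 in siLSD1 (ratio 0.187, interval 0.0350 to 0.654).

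With no filter, edgeR's quasi-likelihood test gave adjusted p values of 0.0484 for SLIT1, 0.0523 for EPHA5, 0.348 for SLIT2 and 0.306 for UNC5A. Read-through transcription from ARHGAP19 into SLIT1 and an antisense gene of EPHA5 are annotated over their exons, as is HK3 on the strand opposite UNC5A. Over the whole group of 19, 2 genes were higher and 1 was lower without overlap in CPM, beside 5.03% and 2.54% of all 3741 genes under the filter. Among other genes under the filter with at least 10 reads, EFNA2 summed to 22 reads in siCTR and 20 in siLSD1, NRP2 to 23 and 19, EPHA7 to 17 and 11, EFNB3 to 5 and 8, SEMA3E to 7 and 3, and SEMA4A to 4 and 6. For these 6 genes the counting interval of the ratio included 1. The remaining 9, EPHA8, EPHA10, EPHB3, PLXNA4, ROBO2, ROBO4, SEMA3A, UNC5C and UNC5D, had between 1 and 9 reads over all 6 libraries, too few for a comparison.

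**Figure D5:**
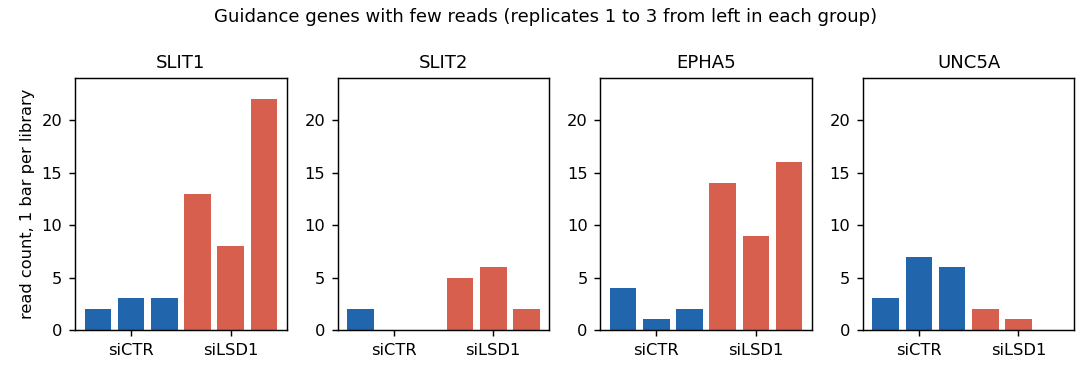
Read counts (vertical axes from 0 to 24) in each of the 6 libraries, siCTR in blue and siLSD1 in red, for 4 guidance genes under the expression filter. SLIT1 reaches at most 3 reads in siCTR and at least 8 in siLSD1, EPHA5 at most 4 and at least 9, and UNC5A at least 3 and at most 2.

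Genes that carry guidance signals inside the cell were examined as a separate list of 52, of which 51 were in the table and 48 were tested. At an unadjusted p under 0.05, 10 were higher and 1 was lower, against 7.48% and 6.55% of all tested genes, respectively. Together these were 22.9% of the 48, beside 14.0% of all tested genes. The median log2 fold change of the list was 0.12 beside -0.01 for all tested genes. siCTR replicate 2 was the lowest control library for most of the 10 higher genes, MICAL2 among them, but not for all. The part of that library in this count was not tested. MICAL2, a relative of the plexin-binding oxidase MICAL1 that oxidises actin, was the 1 gene called at the adjusted threshold, which 1.07% of all tested genes passed as higher and 0.371% as lower. MICAL2 held 266, 153 and 289 reads in siCTR against 515, 427 and 478 in siLSD1, without overlap. Its log2 fold change was 1.00 (SE 0.19, adjusted p = 0.0204), and without siLSD1 replicate 1 the list held 0 called genes. CDK5, a kinase that phosphorylates collapsin response mediators, had the lowest p in the other direction, with a log2 fold change of -0.41 (unadjusted p = 0.0248, adjusted p = 0.268). The groups of CDK5 overlapped.

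A further list of 22 guidance cues and surface proteins had 19 genes in the table and 10 tested. None passed the adjusted threshold in edgeR's test, which 1.07% of all tested genes passed as higher and 0.371% as lower. DESeq2 called 0 of the list, beside 1.77% higher and 0.954% lower of all tested genes. At an unadjusted p under 0.05, 1 was higher and 2 were lower of the 10, beside 7.48% and 6.55% of all tested genes. L1CAM, a cell adhesion molecule that associates with neuropilin, held 6231, 4159 and 5887 reads in siCTR against 7493, 6405 and 6529 in siLSD1 (log2 fold change 0.33, unadjusted p = 0.0383). GPC1, a heparan sulphate proteoglycan that binds Slits, had a log2 fold change of -0.39 (unadjusted p = 0.0196). The other lower gene, the netrin NTN3, held 54, 51 and 61 reads in siCTR against 44, 38 and 17 in siLSD1. Its log2 fold change was -0.74 (edgeR unadjusted p = 0.0323).

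Markers of other cell types were read beside these results because several guidance genes are also expressed by endothelium. Of 8 endothelial markers, 6 were in the table, and their summed FPKM lay between 0.886 and 1.27 in siCTR and between 1.79 and 2.16 in siLSD1. VWF, the von Willebrand factor gene, averaged 6.49 CPM in siCTR and 11.9 CPM in siLSD1 (edgeR adjusted p = 0.0418), and CDH5 averaged 0.582 and 1.79 CPM (adjusted p = 0.0830). CDH5 held only 8, 4 and 11 reads in siCTR against 28, 16 and 27 in siLSD1, and passed the filter through its siLSD1 reads. ERG averaged 1.17 and 1.57 CPM with overlapping groups (adjusted p = 0.718), and PECAM1, TEK and TIE1 stayed at or under 0.126 CPM in both group means. Of 6 epithelial markers, 5 were in the table and summed to between 7.48 and 8.52 FPKM in siCTR and between 7.77 and 9.01 in siLSD1. At an adjusted p under 0.05, 0 of the 3 tested were called, beside 1.07% higher and 0.371% lower of all tested genes. The log2 fold changes of these 3 were 0.77 for CDH1 (edgeR adjusted p = 0.0699), -0.06 for EPCAM and -0.20 for CLDN4. The part of the endothelial and epithelial markers in the SEMA5A and NTN4 values was not tested. In these bulk U2OS libraries, a change in the share of cells expressing a gene and a change in RNA per cell cannot be told apart.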

How the data were processed

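RNA of 6 U2OS libraries, 3 siCTR and 3 siLSD1, was sequenced and the authors aligned clean reads with STAR; the read counter, strand setting, genome build and annotation are not given in the sources used here. The deposited table holds raw read counts per gene, FPKM values, and the authors' normalized counts, a signal in which each library's counts were divided by its size factor. A second set of deposited read counts, in 3 tables of 1 siCTR and 1 siLSD1 library each, served as an alternative. Columns of the authors' own comparisons hold fold changes and p-values and were not used.

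Counts were tested across 11844 of 15585 genes that passed filterByExpr with a minimum count of 10, using edgeR 4.0.16 (R 4.3.3) with TMM scaling, the quasi-likelihood test and Benjamini-Hochberg adjustment over all tested genes. Counts and members' folds were also computed with DESeq2 1.42.0 and limma-voom (limma 3.58.1), other scalings and filters, a GC and length correction, a replicate block and single libraries left out. The script was tested on simulated data. Low-count ratios have exact 95% conditional binomial intervals (scipy). FPKM values were averaged as deposited and received no test. Depth was similar among libraries, and intervals of single counts cover counting error only.

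Coordinates and overlaps are from GENCODE release 44 (GRCh38), to which all 58 members were matched by symbol. Opposite-strand genes also overlap exons of other members described here, including EPHB4, SEMA6D (LINC01491), NRP1 (ENSG00000238258) and PLXNC1 (CEP83). The limit given for SEMA5A, on reads of a pair if counting ignored strand, holds for these too. Promoter windows are from RefSeq (GRCh38.p14), found for 49 members. Named one by one were members with an unadjusted p under 0.05, the member of highest siCTR FPKM in each family, and members under the filter with at least 10 reads. From the pathway lists the genes past the adjusted threshold, or otherwise of lowest p in each direction, were named. SEMA4D, SEMA7A, EFNA3, EFNA5, EFNB2, NTN1, NTN3, ROBO3 and plexins beside PLXNB2 were chosen after their values were seen. They are partners or relatives of those genes. The 9 members with fewer reads are named to account for every member. The members and lists were chosen with earlier results of these data known.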

Additional observations from a re-analysis of the deposited data

How the results depend on the processing

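Of 272 fold changes of single genes under 10 alternatives and 6 fits with a library left out, 245 kept their direction and side of the adjusted threshold, 11 passed it in addition, 4 (NTN4, libraries left out) lost it and 12 changed sign. SEMA5A was called in all 16 of these fits and NTN4 in all 10 alternatives. The counts of guidance genes depended on the setting. With no filter, 8 of 58 were higher and 4 lower at an unadjusted p under 0.05 (6.53% and 5.94% of all genes) and 4 were higher at an adjusted p under 0.05 (1.21%), and the genes tested then included those of few reads. Correcting for gene length and GC content gave 8 higher and 6 lower of 39 at the unadjusted p (1472 and 1394 of 11751 genes in all) and 5 and 2 at the adjusted p (4.49% and 2.94%), and 5 genes of the signalling list; NEO1 then stood at -0.0795 and PLXNB2 at 0.0574, and the cause was not tested. With a replicate block, 6 guidance genes were higher and 5 lower of 39 at the unadjusted p (10.3% and 11.2% of all genes), 5 were higher and 1 lower at the adjusted p (4.13% and 3.44%; SEMA3C, SEMA6B, SEMA6D and UNC5B in addition), and 5 signalling genes and 2 of the other cues were called. Same-number libraries correlated at 0.0744 to 0.328, under 0.1 for pair 2, and all 6 libraries correlated best with their own number. This is a hint from the data, not a stated design. The second set of deposited counts also joins libraries of the same number. Whether such libraries share more than a number is not given in the sources used here.

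With single libraries left out, the counts ranged from 5 to 10 higher (most without siCTR replicate 1) and from 2 to 7 lower (most without siCTR replicate 2) at the unadjusted p, when 8.86% to 14.3% of all genes met it in either direction; the 10 included EPHA5 and SLIT1, which passed the filter there through their siLSD1 reads. At the adjusted p the counts ranged from 1 to 2 guidance genes higher and from 0 to 1 signalling genes. The median log2 fold change of the guidance genes ranged from -0.07 to 0.15, and genes near 0 changed sign (EFNA1 from -0.0793 to 0.15, PLXNB2 from -0.14 to 0.0870, NEO1 from -0.17 to 0.14, EPHB4 from -0.0866 to 0.14). Over all genes the adjusted calls, 127 higher and 44 lower, became 210 and 113 with DESeq2, 188 and 102 with no filter, 489 and 408 with the block, 528 and 346 with the GC and length correction, and 45 to 99 higher and 7 to 37 lower with a library left out. Depth limits the 19 genes under the filter.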
